A study of Caenorhabditis elegans with 12 samples.

Results

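Capped small RNAs of adult Caenorhabditis elegans were compared between 1 library from animals depleted of ATTF-6, an AT-hook DNA-binding protein, and 1 library from control animals, out of 12 small RNA libraries in the series. All rows of both tables were used, keyed on gene and feature type. They held 38827 entries above 0 in the control against 30896 after depletion, 24591 of them in both and 45132 in either. The control strain carried the wrdSi51 transgene on chromosome II, in which the mex-5 promoter drives TIR1, mTagBFP2 and a degron-tagged nuclear marker. The depleted strain carried the same transgene and GFP::tev::aid::attf-6 on chromosome I. Both were moved at the L4 larval stage to plates with 4 mM auxin and kept at 20 °C, and RNA was taken from whole adults. The mex-5 promoter drives expression in the germ line, so depletion was directed to germ cells. The study describes shrunken germ lines after depletion. In whole animals, fewer germ cells and less RNA per germ cell cannot be told apart.

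The Piwi protein PRG-1 loads piRNAs, small guide RNAs that guard the worm germ line against foreign sequences such as transposons. Each type I piRNA is transcribed from its own small gene by RNA polymerase II as a short capped precursor, the capped small RNA or csRNA. The csRNA starts 2 nt upstream of the 5′ U of the mature piRNA, and it is decapped and trimmed at both ends. Type I genes carry an upstream Ruby motif and crowd into a pair of clusters on chromosome IV. Type II piRNAs come from capped RNAs near the promoters of many other genes, which often lack the motif. Worm hermaphrodites make sperm in late larval life and oocytes as adults, and the deposited tables label some type I loci Spermatogenic or Oogenic. In the CIP-TAP method, a phosphatase removes uncapped 5′ phosphates and a pyrophosphatase then opens the caps, which is meant to favour capped RNAs in cloning.

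The mature sequences of 4 assayed type I piRNAs are shown because they locate the csRNA. They were rebuilt from RT-qPCR primer pairs, and the capital marks the 5′ base, with the csRNA cap 2 nt further upstream. All are 21 nt long and lie on chromosome IV of WBcel235 in cluster II, 21ur-1496 at 16697299 to 16697319 on the plus strand, 21ur-3442 at 15545438 to 15545458 on the minus strand, 21ur-4606 at 16898307 to 16898327 and 21ur-5665 at 14202798 to 14202818, both on the plus strand.
21ur-1496: Tggatgactaattttgactaa
21ur-3442: Tactagagtgttgagattgtg
21ur-4606: Tcctactatcggtctatttcg
21ur-5665: Tttgtacggtgcattatgtat

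Counts summed to 11832193 in the control against 6352629 after depletion. Normalised counts are scaled to the constant by which the authors divided each library, 5040530 in the control against 3804460 after depletion. With 1 library per group there is no replicate check and no test, and the 95% intervals given are exact binomial ones that cover counting error only. PCR copies were not removed. A library with 3 counts or fewer is taken as at the floor, and folds against it, written with "at least", are bounds computed from 3 counts. They are not limits of the counting interval, which can start lower. For 21ur-5362, at least 1831-fold lower by this rule, the interval starts at 1489. Scaling to summed counts adds 0.49 to every log2 ratio, scaling to summed counts without type I csRNA adds 0.15, and scaling to miRNA counts is a shift of -0.76. The median log2 ratio of the 25177 entries with at least 20 counts was -1.14, and -0.58 without type I csRNA.

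Germline markers moved with the depletion. The miR-35 to miR-41 family, made in the germ line and embryo, summed to 11650 normalised counts in the control against 1970 after depletion, 5.91-fold lower, and all 10 entries with at least 20 counts were lower, with log2 ratios from -6.46 to -1.47. In the replicated PIR-1 libraries of the same strains, a polyphosphatase-treated series, all 12 entries of this family fell (edgeR quasi-likelihood test, adjusted p at most 0.05), by log2 fold changes of -5.94 to -2.14. Of 7 somatic miRNA names listed, 3 matched no entry used here, and the 3 entries of the other 4 with enough counts had log2 ratios of 0.40 to 1.45, of which only the highest stays above 0 by miRNA counts. In the PIR-1 libraries, of 7 somatic entries, let-7-3p fell (log2 fold change -1.95, edgeR adjusted p 2.16e-06), miR-228-5p rose (0.53, adjusted p 0.0278) and 5 did not pass. The part of these markers in the csRNA results below was not tested.

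Type I csRNA was the class that differed most. It held 2548067 counts in the control against 15998.5 after depletion, 21.5% and 0.252% of all counts respectively. Normalised, these were 505516 and 4205, a 120-fold difference with a counting interval of 118 to 122, and 85.5-fold when scaled to summed counts. Type I loci made up 88.8% of all csRNA counts in the control against 8.14% after depletion. Neither library was mostly csRNA, since siRNA entries, described below, held 47.2% of all counts in the control and 38.2% after depletion. Type II csRNA held 322203 and 180623 counts, 1.35-fold lower in the depleted library by the authors' constant (interval 1.34 to 1.35) and 1.04-fold higher by summed counts.

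**Figure D1:**
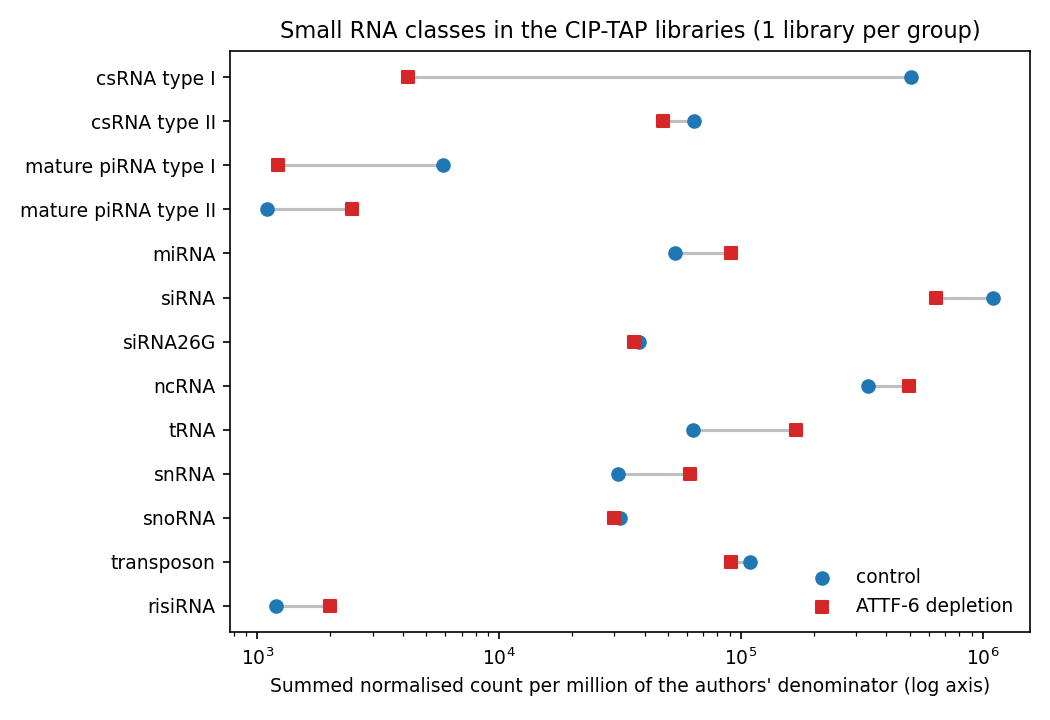
Summed normalised counts (x axis, log scale) of each small RNA class (rows) in the control (circles) and depleted (squares) CIP-TAP libraries, with a grey line joining the pair. Type I csRNA shows the widest gap, 505516 against 4205, while the direction of the plotted type II csRNA, siRNA26G, snoRNA, transposon, ncRNA and risiRNA sums, and of the scRNA sum, not plotted, depends on the scaling.

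Of 15363 annotated type I loci, 7338 had a csRNA count in either library, 5610 of them in the control alone, 1593 in both and 135 in the depleted library alone. The 135 loci shared 723 counts, none above 25. Of them, 56 carry the Spermatogenic label, beside 1817 of the 7203 type I loci with a control csRNA count. In the control 226 loci made up 50% of the type I csRNA counts, and 231 loci did so in the depleted library. Among the 100 most abundant entries of any class, 7 were type I csRNAs in the control against 0 after depletion.

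With at least 20 counts over both libraries, 4518 type I loci passed. Of these, 4310 (95.4%) were at least 4-fold lower and 5 at least 4-fold higher, beside 37.9% lower and 5.78% higher over all entries tested. Among the 18760 entries other than csRNA, 26.5% were lower. Among the 4518 loci, 3553 were at the floor in the depleted library and 3072 had no count. Their median log2 ratio was -6.56 with 0.5 count added, or -4.47 with loci at the floor held at their bound. The 5 higher loci all had 10 counts or fewer in the control. They were 21ur-12335 with 0 against 25 counts, 21ur-8512 with 4 against 27, 21ur-15625 with 10 against 45, 21ur-15569 with 7 against 30.5 and 21ur-9823 with 5.5 against 22. None lies in a cluster, and 21ur-15569 has another annotated type I start within 2 nt on the same strand.

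**Figure D2:**
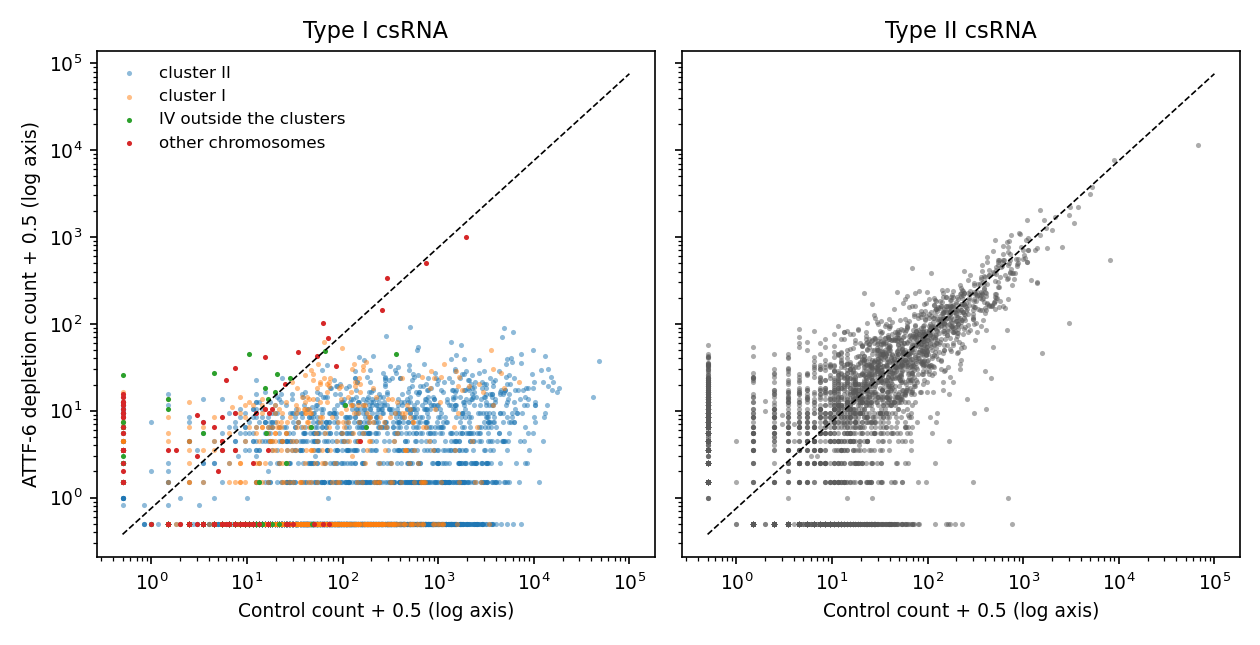
Counts of each csRNA locus plus 0.5 in the control (x) and depleted (y) library, log axes, for type I loci coloured by region (left) and type II entries (right), where the dashed line marks equal normalised counts. Type I loci of both clusters lie far below the line with depleted counts mostly under 100, whereas type II entries follow it.

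The csRNAs most abundant in the control had few reads after depletion. The locus 21ur-1222 (IV, 15411485) had 48140 counts in the control, rank 15 of all entries, and 37 in the depleted library, rank 9466. Its csRNA was 982-fold lower (interval 712 to 1395). 21ur-5504 had 42005 and 14 counts, 2265-fold lower (1350 to 4143). 21ur-4136 had 18383 and 18, 21ur-538 had 17327 and 16, 21ur-15573 had 15723 and 21, and 21ur-1437 had 15513 and 17, which made them 771-fold, 817-fold, 565-fold and 689-fold lower. 21ur-5504, 21ur-4136 and 21ur-1437 each have another annotated type I start within 2 nt on the same strand. All 6 loci lie in cluster II. The matching mature piRNAs of 5 of them fell in the PIR-1 libraries by log2 fold changes of -6.17 to -5.49 (edgeR, largest adjusted p 1.97e-25), and 21ur-15573 had no mature read there. Their csRNA entries in the same PIR-1 libraries were few and none of the 6 passed the test. That of 21ur-1222 was 3.31 and 3.37 in the control and 3.51 and 1.69 in the depleted libraries (log2 fold change -0.33, edgeR adjusted p 0.553).

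Several loci abundant in the control had no read after depletion. 21ur-5362 had 7277 control counts and 0 in the depleted library, at least 1831-fold lower. 21ur-5695 had 6074, 21ur-4162 had 5298, 21ur-4502 had 4567 and 21ur-4860 had 4040 control counts, each against 0. They were at least 1528-fold, 1333-fold, 1149-fold and 1016-fold lower. 21ur-4162, 21ur-4502 and 21ur-4860 each have another annotated type I start within 2 nt on the same strand. Mature 21ur-5362 had normalised counts of 82.6 and 119 in the control and 0.62 and 1.21 in the depleted PIR-1 libraries. Of the csRNA entries of these 5 loci in the PIR-1 libraries, 3 were tested, and that of 21ur-4162 fell (log2 fold change -3.45, edgeR adjusted p 0.00579) while 21ur-5362 (0.82, adjusted p 0.460) and 21ur-5695 (-1.10, adjusted p 0.383) did not pass.

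The individually assayed piRNAs ranged widely as csRNAs. 21ur-3442 had 5285 control counts and 12 in the depleted library, 332-fold lower (190 to 644), and 21ur-5665 had 685 and 8, 64.6-fold lower (32.6 to 150). 21ur-2675, with another annotated type I start within 2 nt on the same strand, had 2424 and 0, at least 610-fold lower. 21ur-4606 had 128 and 0, at least 32.2-fold lower. 21ur-1769, a Spermatogenic locus, had 140 and 21, 5.03-fold lower (3.17 to 8.38). The csRNA of 21ur-5665 also fell in the PIR-1 libraries (log2 fold change -6.06, edgeR adjusted p 0.000430). A csRNA value of 21ur-1496 was not analysed here. The bound for 21ur-4606 is set by its 128 control counts, and its mature form had 119 and 143 in the control and 2.07 and 3.15 in the depleted PIR-1 libraries.

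Position separated the loci. Cluster II, with annotated loci from 13543927 to 17489571 on chromosome IV, held 474234 normalised counts in the control against 2676 after depletion, and cluster I, from 4630304 to 7431588, held 30156 and 730. The 177-fold and 41.3-fold differences were 2.10 apart on the log2 scale, a difference of -2.10 with a counting interval of -2.16 to -2.04 that no change of scaling moves. Over loci with at least 20 counts, median log2 ratios with floor loci held at their bound were -4.64 in cluster II and -3.59 in cluster I. The fold grew with control count, as given below, and the clusters were not compared within ranges of control count. Chromosome IV loci outside the clusters were 2.44-fold lower (2.17 to 2.74), with 247 and 101 normalised counts. Loci on other chromosomes were 1.26-fold lower (1.20 to 1.32), with 879 and 698, but 1.12-fold higher by summed counts. They held 0.174% of type I csRNA counts in the control against 16.6% after depletion.

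The loci that remained most abundant after depletion were mostly not cluster loci. 21ur-12937 on chromosome I had 1944 control counts and 1001 in the depleted library, 1.47-fold lower (1.36 to 1.58). 21ur-9572 on chromosome III had 752 and 500, 1.14-fold lower, while 21ur-7304 on chromosome III had 293 and 340, 1.54-fold higher but lower by miRNA counts (log2 ratio -0.14), and 21ur-13977 on chromosome V had 62 and 102, 2.18-fold higher. 21ur-11854 on chromosome I had 260 and 142. The only cluster locus among the 6 was 21ur-9362 with 506 and 91, 4.20-fold lower (3.35 to 5.31). The first 3 loci held 69.3% of the depleted counts off chromosome IV, and without them these loci were 1.34-fold lower by the authors' constant, a gap smaller than the 0.49 (log2) between scalings, as are those of 21ur-9572 and 21ur-11854. In the PIR-1 libraries, mature 21ur-9572 rose (log2 fold change 3.31, edgeR adjusted p 9.04e-16), as did mature 21ur-7304 (2.39, adjusted p 2.64e-05), and mature 21ur-12937 had 1.75 with an adjusted p of 0.0691.

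**Figure D3:**
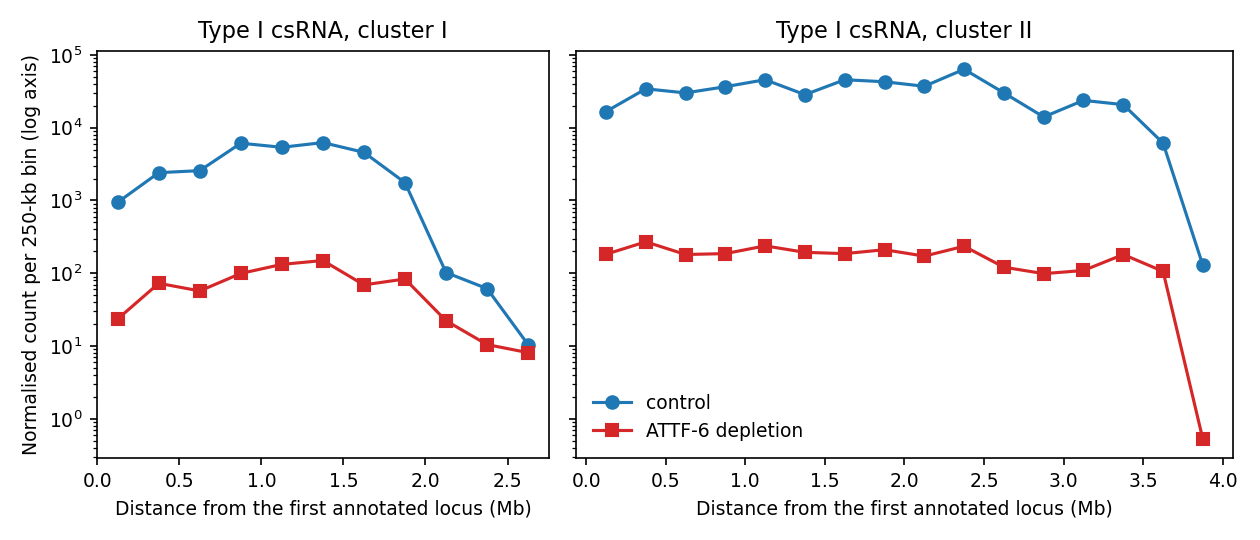
Type I csRNA along both clusters, as the normalised count per 250-kb bin (y, log axis) against distance from the first annotated locus (x, Mb), for the control (circles) and depleted (squares) library. The control profile rises and falls along each cluster while the depleted profile stays low, and the gap is narrow at the far end of cluster I.

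Within the clusters the gap was not even. In 250-kb bins of cluster II with at least 20 loci, the fold ranged from 57.7 (52.3 to 63.9) near its far end to 269 (252 to 288) in the bin 2250 to 2500 kb from the first locus. In cluster I the range was 4.59 (3.64 to 5.84), in the bin 2000 to 2250 kb from the first locus, to 66.0 (58.5 to 74.8) in the bin starting at 1500 kb. Both genomic strands behaved alike in size, with 117-fold on plus and 124-fold on minus.

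Loci labelled Spermatogenic kept more csRNA than those labelled Oogenic. Spermatogenic loci had 40535 normalised counts in the control and 1534 after depletion, 26.4-fold lower (25.7 to 27.1). Oogenic loci had 153649 and 308, 499-fold lower (471 to 529), and unlabelled loci had 311325 and 2363, 132-fold lower. As a share of type I csRNA counts, Spermatogenic loci went from 8.02% to 36.5% and Oogenic loci from 30.4% to 7.32%. The order was the same in both clusters. In cluster I it was 8.38-fold, 66.0-fold and 293-fold for Spermatogenic, unlabelled and Oogenic loci, and in cluster II 34.4-fold, 221-fold and 514-fold.

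Abundance differed between the labels, so the same order was read within ranges of control count. Above 100 and up to 1000 control counts, 360 Spermatogenic loci were 28.9-fold lower and 407 Oogenic loci 393-fold lower. Above 1000 and up to 10000, 31 Spermatogenic loci were 88.2-fold lower (81.3 to 95.7) and 186 Oogenic loci 585-fold lower (541 to 632). Over all labels, the fold grew with control count, from 24.2 above 10 and up to 100 counts to 78.3, 225 and 696 in the next ranges. These ranges were set by the control library that also enters the fold. Of 4475 cluster loci that passed the count filter, 181 were within 4-fold, and 120 of these carry the Spermatogenic label against 1105 of all 4475.

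**Figure D4:**
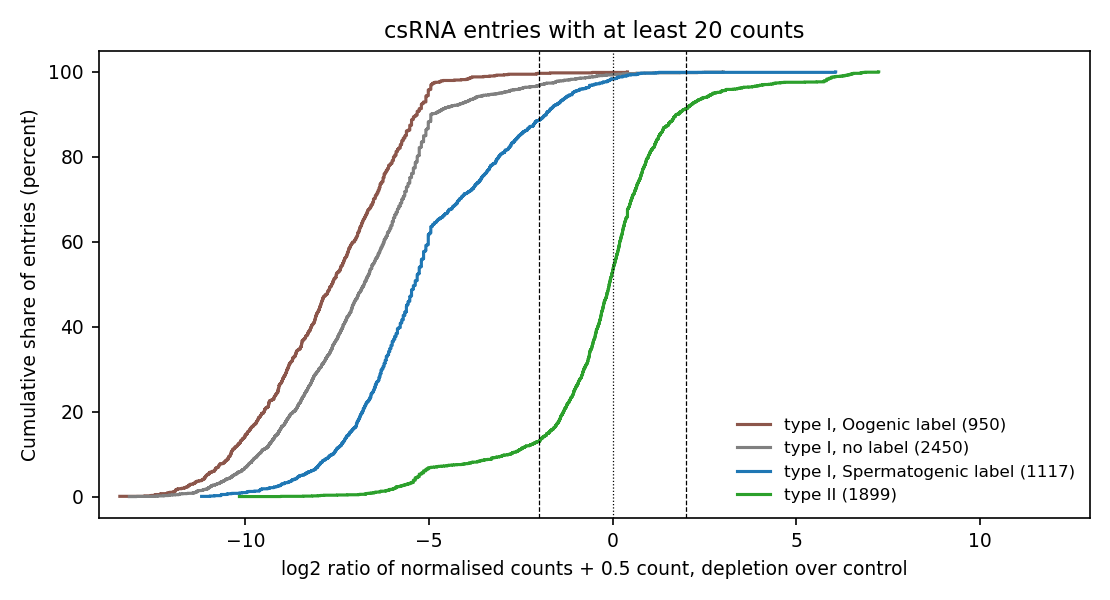
Cumulative share of csRNA entries with at least 20 counts (y, percent) against their log2 ratio of depletion over control (x), for type I loci by label and for type II entries, with dotted and dashed lines at no difference and at 4-fold. Median log2 ratios were -7.65 for Oogenic, -6.77 for unlabelled and -5.38 for Spermatogenic loci and -0.09 for type II, and -5.47, -4.74 and -3.47 for the type I labels with loci at the floor held at their bound.

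The mature piRNAs of the same groups were read in the PIR-1 libraries. Mature type I piRNAs of Oogenic loci were 55.9-fold lower, of unlabelled loci 33.3-fold and of Spermatogenic loci 14.3-fold lower in the mean of 2 libraries. They were 30.6-fold lower in cluster II, 22.5-fold in cluster I, 3.02-fold on chromosome IV outside the clusters, and 1.44-fold higher on other chromosomes. Over 2056 loci with at least 100 control csRNA counts and 40 mature control counts, the median log2 ratio was -8.18 for csRNA and -5.19 for the mature form. With the 1462 loci at the floor held at their bound, the csRNA median was -6.30 and the csRNA ratio was the lower one at 1594 loci. Spearman's rho between control csRNA and mature abundance over the 2335 loci with at least 100 control csRNA counts was 0.34, a description across loci that share the same libraries.

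The PIR-1 libraries also count reads at the csRNA position, which gives the only replicated values for these loci. They held more summed counts than the CIP-TAP pair but far less csRNA. Type I csRNA averaged 4143 normalised counts in the PIR-1 control against 505516 in the CIP-TAP control. The PIR-1 treatment acts on 5′ triphosphates and is not directed at caps, so the PIR-1 libraries do not repeat the CIP-TAP measurement. Summed type I csRNA of the PIR-1 libraries was 3867 and 4418 in the control and 660 and 615 in the depleted libraries, groups that do not overlap (log2 ratio -2.70, exact two-sided permutation p = 0.333, the smallest that 2 libraries against 2 allow). Type II csRNA was 2376 and 2076 against 2060 and 1768 (log2 ratio -0.22, exact permutation p = 0.333). These groups are barely apart, with 2076 in the nearest control library and 2060 in the nearest depleted one. Of 308 type I loci tested there, 220 fell and 4 rose (edgeR quasi-likelihood test, adjusted p at most 0.05), beside 54.5% of all features that fell and 12.7% that rose. Of 150 type II entries, 46 fell and 26 rose. Without control library 1 the type II counts were 25 and 15, without depleted library 1 the type II entries that rose were 11, and without control library 1 or 2 the type I loci that rose were 2 or 1.

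Type II csRNA entries scattered around no difference, with a few exceptions. Of 3756 entries with a count in either CIP-TAP library, 1899 had at least 20 counts, with a median log2 ratio of -0.09. Of these, 248 (13.1%) were at least 4-fold lower and 164 (8.64%) at least 4-fold higher, against 37.9% and 5.78% of all entries. With at least 100 counts, 36 of 718 were lower and 20 higher, so that most calls sat at low counts. One entry, 21ur.type2-1, held 21.1% of type II csRNA counts in the control against 6.36% after depletion, with 67830 and 11479 counts, 4.46-fold lower (4.37 to 4.55). Without it, type II csRNA was 1.14-fold lower by the authors' constant and 0.31 higher on the log2 scale by summed counts. Its csRNA also fell in the PIR-1 libraries (log2 fold change -0.91, edgeR adjusted p 0.0199). Mature 21ur.type2-1 did not pass the test there (log2 fold change 0.15, adjusted p 0.555, edgeR).

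Most of the next type II csRNAs by abundance differed by less than the shift between scalings. 21ur.type2-5458 had 8949 and 7681 counts, 1.14-fold higher in the depleted library. 21ur.type2-758 had 5235 and 3774, 21ur.type2-9107 had 5036 and 3081 and 21ur.type2-645 had 3740 and 2213, which made them 1.05-fold, 1.23-fold and 1.28-fold lower. 21ur.type2-2 stood apart with 8055 and 546, 11.1-fold lower (10.2 to 12.2), while its mature piRNA rose in the PIR-1 libraries (log2 fold change 0.88, edgeR adjusted p 0.00106). Mature piRNAs of the other 4 also rose there. Mature 21ur.type2-758 had 7.89 and 12.4 in the control and 123 and 102 in the depleted libraries (log2 fold change 3.51, edgeR adjusted p 5.37e-32), and mature 21ur.type2-9107 had 2.29 and 2.70 against 60.3 and 58.3 (4.58, adjusted p 6.04e-39).

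The type II entries with the deepest loss lost the mature piRNA too. 21ur.type2-45 had 760 and 0 csRNA counts, at least 191-fold lower, 21ur.type2-175 had 228 and 0, at least 57.4-fold lower, and 21ur.type2-33 had 192 and 0, at least 48.3-fold lower. 21ur.type2-11 had 698 and 0.5, a fractional count, and was at least 176-fold lower. Their mature piRNAs fell by log2 fold changes of -7.24 to -5.57 (edgeR, largest adjusted p 4.80e-26). Mature 21ur.type2-45 had 16.2 and 21.8 in the control and 0 and 0.48 in the depleted PIR-1 libraries. At the other end, 21ur.type2-3286 had 21 and 226 csRNA counts, 14.3-fold higher, 21ur.type2-6400 had 11 and 95, 11.4-fold higher, 21ur.type2-4213 had 68 and 442, 8.61-fold higher, and 21ur.type2-1068 had 26 and 167, 8.51-fold higher. Of these 4, only 21ur.type2-6400 had a tested mature piRNA, which rose (log2 fold change 3.43, edgeR adjusted p 0.0124).

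Across type II entries, csRNA and mature calls were read side by side. Among the 248 entries at least 4-fold lower as csRNA, 116 had a tested mature piRNA, of which 26 fell and 63 rose in the PIR-1 libraries (edgeR, adjusted p at most 0.05). Among the 1487 within 4-fold, 869 had one, of which 2 fell and 781 rose. Among type I loci at least 4-fold lower, 3846 of 3864 tested mature piRNAs fell and 0 rose, and among type I loci within 4-fold 157 of 175 fell and 6 rose. Over all mature type I piRNAs tested, 8233 of 8445 fell, and of mature type II piRNAs, 104 of 1703 fell and 1349 rose.

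The remaining classes moved far less than type I csRNA. Mature piRNAs are uncapped and were scarce in the CIP-TAP libraries, with 5865 and 1217 normalised counts for type I, 4.82-fold lower (4.67 to 4.97), against 358096 ± 44567 (SD, n = 2) in the control PIR-1 libraries. In the CIP-TAP libraries the mature entries of the adjacent loci 21ur-2686 and 21ur-9424 each had 1318.5 and 48 counts, a fractional value. 21ur-11734 had 366 and 0 and 21ur-9853 had 174 and 0. The mature type II entries 21ur.type2-459 and 21ur.type2-1054 were 6.08-fold higher (34 and 156 counts) and 5.21-fold higher (31 and 122). In the PIR-1 libraries the former rose (log2 fold change 5.31, edgeR adjusted p 5.54e-09) and the latter did not pass (1.35, adjusted p 0.247). miRNAs were 1.69-fold higher (53584 and 90750 normalised counts). Among them miR-58a-3p, an abundant somatic miRNA, had 28701 and 34093 counts, miR-82-3p of the same seed family had 22181 and 40560, and miR-37-3p had 25573 and 1813, 10.6-fold lower. miR-798-3p had 313 and 0, at least 78.7-fold lower, and fell in the PIR-1 libraries (log2 fold change -4.97, edgeR adjusted p 1.97e-35). miR-359-3p was 9.09-fold higher with 14 and 96 counts, and miR-61-3p 4.96-fold higher with 225 and 842, but neither passed the edgeR test in the PIR-1 libraries (log2 fold changes 0.47 and -0.23, adjusted p 0.100 and 0.379).

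Structural RNA fragments took a larger share after depletion. tRNA fragments had 63441 and 169340 normalised counts, 2.67-fold higher (2.66 to 2.68), and higher under every scaling tried. snRNA fragments were 2.00-fold higher but had a log2 ratio of -1.31 when entries with fractional counts were left out. The 12 sls-1 genes for spliced leader RNA SL1, which share reads, summed to 26881 and 21611 counts, a log2 ratio of 0.09, and the 18 sls-2 genes to 3679 and 3908, a log2 ratio of 0.49, both below 0 by miRNA counts. ncRNA entries were 1.48-fold higher by the authors' constant and lower by miRNA counts (log2 ratio -0.20). The ncRNA entries F31C3.14 and F31C3.15 had 102228 and 174651 counts and 71664 and 136557 counts. Y37A1B.335 in cluster II had 54340.5 and 78139. These entries are all fractional. ZK757.8 had 5 and 100 counts and W09G3.18 had 13 and 196. B0350.77 in cluster I had 948 and 2, at least 239-fold lower by the 3-count rule, with a counting interval of 98.8 to 2958. It fell in the PIR-1 libraries (log2 fold change -5.72, edgeR adjusted p 9.66e-62). The risiRNA entries, antisense to rRNA and with a sum whose direction flips by miRNA counts, were 1.74-fold higher at rrn-3.1 (4813 and 6303 counts) and 1.40-fold higher at rrn-2.1 (1242 and 1308), and MTCE.7 had 1 and 0.

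siRNAs, mostly RNAs antisense to protein-coding genes, were 1.74-fold lower (1.73 to 1.74), and 1.23-fold lower by summed counts. linc-29 in cluster I, the most abundant entry of the control, had 109821 and 20384.5 counts, 4.07-fold lower. Its siRNAs fell in the PIR-1 libraries (log2 fold change -1.35, edgeR adjusted p 1.53e-08). F15D4.5 had 81487.5 and 61547 and Y46H3C.6 had 71609 and 35871.5. wee-1.2, an oocyte kinase gene, had 836 and 0 and Y116F11A.1 had 432 and 0, at least 210-fold and 109-fold lower. Y43F8B.1 had 0 and 250 and dpy-4, a cuticle collagen gene in cluster II, had 0 and 186, at least 110-fold and 82.1-fold higher. All 4 passed the edgeR test in the same direction in the PIR-1 libraries, with 133 and 94.2 against 3.10 and 2.90 for wee-1.2 and 0.26 and 0.23 against 10.5 and 6.78 for dpy-4.

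Transposon-derived entries summed to 1.20-fold lower, and 1.17-fold higher by summed counts. The most abundant, CER8-I_CE, CER9-I_CE and NeSL-1, were 1.13-fold, 1.42-fold and 1.16-fold lower. CER1, a retrotransposon active in the worm germ line, had 5685 and 124 counts, 34.6-fold lower (29.0 to 41.7), and in the PIR-1 libraries it had 1648 and 1485 against 24.99 and 16.7 (log2 fold change -6.22, edgeR adjusted p 1.95e-89). LTRCER1 was 6.72-fold lower. SINE1_CE had 191 and 2513 counts, 17.4-fold higher (15.0 to 20.3), and 6.49 and 4.49 against 173 and 146 in the PIR-1 libraries (4.81, adjusted p 1.72e-51). CELE42 was 4.27-fold higher.

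The 26G siRNAs are primary antisense small RNAs made in the germ line and embryo. Entries labelled siRNA26G, the 26G entries below, summed to nearly the same level in both libraries, 37806 and 36172, with a direction that flips by summed counts. Those at genes inside the piRNA clusters did not follow, a comparison chosen after the values were seen. Whether the reads of these entries are 26G siRNAs was not tested. The 3 most abundant entries were Y105C5A.8 in cluster II with 1938 and 26 counts, 56.3-fold lower (38.3 to 86.3), Y54G11A.14 on chromosome II with 1783 and 518, and F15D4.5 with 1101 and 894. The deepest losses were Y64G10A.2 with 711.5 and 0 and xdh-1 with 620.5 and 0, both in cluster II and at least 179-fold and 156-fold lower. EEED8.15 had 0 and 107 counts, and imp-3 had 10 and 116 but fell in the PIR-1 libraries (log2 fold change -1.95, edgeR adjusted p 0.0300).

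All 26G entries with at least 20 counts had a median log2 ratio of -4.29 at 161 cluster II genes, -0.71 at 133 cluster I genes, 0.13 at 455 genes elsewhere on chromosome IV and -0.02 at 2919 genes on other chromosomes. At least 4-fold lower were 96 (59.6%), 46 (34.6%), 63 (13.8%) and 534 (18.3%) of them, beside 20.1% of all 26G entries and 37.9% of all entries of any class. The cluster I share is thus below that of all entries. Entries at least 8-fold above their PIR-1 control mean in the CIP-TAP control were then read alone. This filter rests on the control value that also enters the ratio, and in cluster I it moved the median from -0.71 to -5.12, so the medians are a description. They were -5.79 for 89 entries in cluster II, -5.12 for 42 in cluster I (23 of them at 0 after depletion), -0.05 for 93 elsewhere on chromosome IV and -0.02 for 811 on other chromosomes. Summed, the 89 cluster II entries had 2451 and 172 normalised counts in the CIP-TAP libraries, and 17.7 and 19.2 against 24.0 and 19.0 in the PIR-1 libraries. The 42 cluster I entries summed to 561 and 181, 3.09-fold lower. Examples outside the naming rule, picked for their values, were F58F9.6 and str-162 in cluster I with 317 and 267 control counts and srz-31 in cluster II with 305, each against 0.

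**Figure D5:**
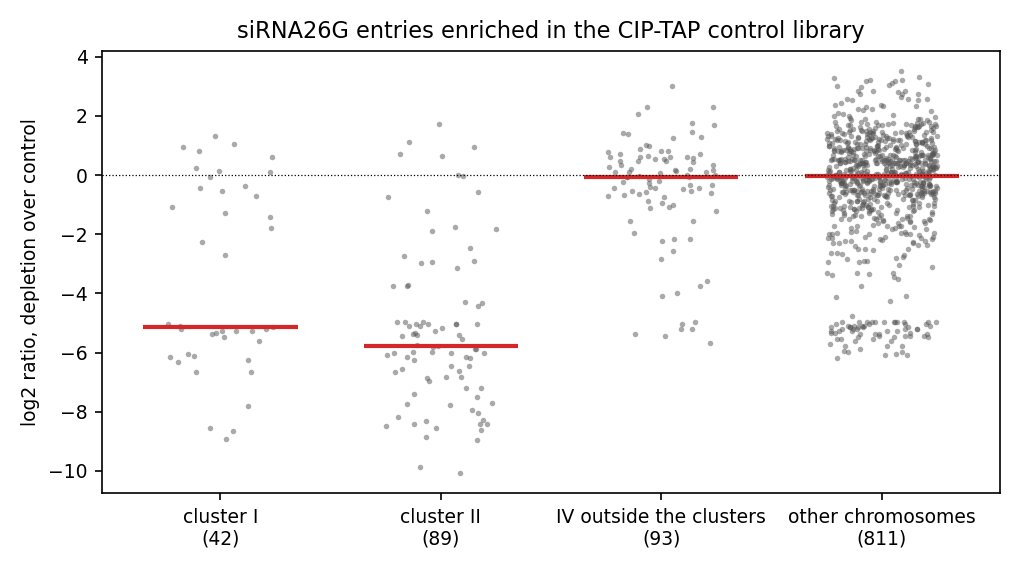
Log2 ratio of depletion over control (y) of each siRNA26G entry at least 8-fold above its PIR-1 mean in the CIP-TAP control, grouped by the position of its gene (x, number of entries in brackets), with red bars at the medians. Most cluster entries lie below -2, the 4-fold line, while entries elsewhere centre on no difference.

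Of these 131 cluster entries, 94 lie at genes that hold an annotated type I locus on the opposite strand, the strand on which a csRNA would be read as antisense to the gene. Their median log2 ratio was -5.58, and 80 were at least 4-fold lower. The 37 without such a locus had a median of -5.02, and 21 were at least 4-fold lower. Over all entries of any class 37.9% were at least 4-fold lower. Of 26G entries selected in the same way, 17.2% of the 93 elsewhere on chromosome IV were at least 4-fold lower. On other chromosomes 14.7% of 811 were. How the authors treated a read that fits both a csRNA and a 26G entry is not given in the sources used here, and sharing of reads between the entry types was not tested.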

How the data were processed

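The authors trimmed reads with TrimGalore and aligned them with Bowtie, without mismatches, to WormBase WS279. csRNA reads had to be 15 to 40 nt long and start 2 nt upstream of an annotated piRNA 5′ end. The deposited tables give an estimated count per feature, whole in 89.6% and 88.1% of entries in the CIP-TAP pair, and a normalised signal. To obtain that deposited signal, counts had been divided by a constant of their library. That constant was recovered as the ratio of the columns. The counts sum to 2.35 and 1.67 times it in the CIP-TAP libraries, so which reads it holds was not settled. Coordinates came from Ensembl WBcel235 by gene identifier, and clusters were 4.5 to 7.5 and 13.5 to 17.5 Mb of chromosome IV. Type II entries had no coordinates there.

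Single entries of the CIP-TAP pair were compared as log2 ratios with 0.5 count added, among entries with at least 20 summed counts, and counted at 4-fold. Intervals are exact Clopper-Pearson ones (scipy 1.17.1). The PIR-1 libraries (2 per group) were tested on rounded counts with edgeR 4.0.16 in R 4.3.3, the authors' constant as library size, a filter on the mean normalised value (0.5 or more), and Benjamini-Hochberg adjustment over all features at 0.05. The study calls replicates of such libraries biological, and the labels do not say what separates them. Scripts were tested on simulated data. Alternatives were other scalings, filters and fold limits, DESeq2 1.42.0, the replicate block and leaving out each library.

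Entries were named by rule, the 6 highest type I loci of each library, the assayed loci, the 5 highest control loci at 0 in the depleted library, the 6 highest type II entries with the 4 largest rises and falls, and per other class the 3 highest with the 2 largest rises and falls, falls and rises among entries with at least 100 counts. The members and lists were chosen with earlier results of these data known. Deletion libraries were not used here.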

Additional observations from a re-analysis of the deposited data

How the results depend on the processing

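Type I csRNA and both clusters stayed lower under every scaling, and the gap between clusters did not move by more than its counting interval. By summed counts, log2 ratios were -6.42 for type I csRNA, -4.88 for cluster I, -6.98 for cluster II and 0.062 for type II csRNA, and, for other classes, -1.78 (mature type I), 1.66 (mature type II), 1.25 (miRNA), -0.30 (siRNA), 0.43 (siRNA26G), 1.05 (ncRNA), 1.91 (tRNA), 1.49 (snRNA), 0.41 (snoRNA), 0.23 (transposon), 1.23 (risiRNA) and 0.56 (scRNA). By summed counts without type I csRNA they were -6.76, -5.22, -7.32, -0.28, -2.12, 1.32, 0.91, -0.65, 0.081, 0.71, 1.56, 1.14, 0.065, -0.12, 0.88 and 0.22 in the same order. By miRNA counts, without the miRNA class itself, they were -7.67, -6.13, -8.23, -1.19, -3.03, 0.41, -1.56, -0.82, -0.20, 0.66, 0.24, -0.84, -1.02, -0.023 and -0.69. By construction each scaling shifts all classes alike. Leaving out fractional entries gave -2.10 for mature type I, -0.84 for siRNA, -0.036 for siRNA26G, 0.14 for ncRNA, 3.47 for tRNA, -1.31 for snRNA and 0.055 for snoRNA.

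The number of type I loci at least 4-fold lower was 6511 with no filter and 2335 with at least 100 counts. Type II entries lower and higher were 884 and 812 with no filter, 36 and 20 with at least 100 counts, 488 and 370 at 2-fold, and 413 and 95 by miRNA counts. In the PIR-1 libraries, type I csRNA loci that fell were 94 of 270 tested with DESeq2, beside 9668 of 33049 features of any kind. With TMM scaling they were 174 of 308, beside 12898 of 33703. Type I loci that rose were 12 with TMM scaling and 9 with DESeq2. Type II entries that fell and rose were 19 and 58 of 150 with TMM and 13 and 42 of 146 with DESeq2. Adjusted p was left missing where DESeq2 gave none. Over all features, 18370 fell and 4288 rose of 33703 by the authors' constant, against 12898 and 10156 of 33703 with TMM. With DESeq2 they were 9668 and 7201 of 33049, and the cause of these differences was not tested. Leaving out 1 PIR-1 library gave 154 to 244 type I loci that fell, 1 to 5 that rose, 25 to 43 type II entries that fell and 11 to 24 that rose.

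The replicate numbers of the PIR-1 libraries come from the labels, which do not say what they share. Deviations of same-numbered libraries correlated at 0.14 over 33703 features, with 2 pairs only. With the replicate block, 213 type I loci fell and 6 rose, and 47 type II entries fell and 27 rose. The CIP-TAP libraries have no replicates, so no paired analysis was possible there. Loci with few control counts cannot show a large fold, since 3 counts in the depleted library correspond to a normalised count of 0.789.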

Other observations

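A pair of entries inside cluster I that are not annotated as piRNA loci were far deeper in the CIP-TAP control than in the PIR-1 libraries. miR-58b-5p, from a miRNA gene at 6660461 to 6660519 on chromosome IV, had 3043 CIP-TAP control counts and 11 in the depleted library, 209-fold lower (117 to 419), while its PIR-1 values were 1.27 and 1.12 in the control and 0.21 and 0 in the depleted libraries (log2 fold change -3.20, edgeR adjusted p 0.0153). The ncRNA R13H7.19, at 6858321 to 6858428, had 567 and 0 counts, at least 143-fold lower, with 0.64 and 0.45 against 0.41 and 0 in the PIR-1 libraries. No annotated type I locus lies within 100 nt of either gene.

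The mature type II piRNA list of the tables holds an entry named let-7a with 2098 and 4529 counts in the CIP-TAP libraries, where the miRNA let-7-5p had 2771 and 5734. Without that entry, mature type II piRNAs had 3422 and 4862 counts in the CIP-TAP libraries, 1.88-fold higher in place of 2.25-fold.

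Over all siRNA entries with at least 20 counts, median log2 ratios were -1.55 at 247 cluster II genes, -1.35 at 281 cluster I genes, -1.46 at 1179 genes elsewhere on chromosome IV and -1.39 at 8267 genes on other chromosomes. Those that were at least 8-fold above their PIR-1 control mean had median log2 ratios of -5.36 at 35 cluster II genes and -3.16 at 13 cluster I genes, against -0.92 at 44 genes elsewhere on chromosome IV and -0.34 at 284 genes on other chromosomes, a filter that rests on the control value of the ratio. Structural ncRNA, tRNA, snRNA and snoRNA entries selected in the same way had medians of 0.02 at 26 cluster II genes and -0.08 at 92 cluster I genes, although the 26 cluster II entries summed to 4985 and 1374 normalised counts, 3.63-fold lower, and in the PIR-1 libraries to 302 and 342 against 86.8 and 81.3.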
